A study of Mus musculus with 15 samples.

Results

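The comparison set Lrig1-high cells from colonic tumors against Lrig1-high cells from normal colonic epithelium, and it took 7 of the 15 deposited libraries by their titles: the tumor libraries S04, S08 and S12 and the normal libraries S02, S06, S10 and S14. The mice of all 7 were crosses of Lrig1-eGFP-IRES-CreERT2 and APCmin, so the normal epithelium carries the Apc-min allele and the reporter as well. Tumors were cut from the tissue around them and minced. Epithelial cells were released with EDTA, TrypLE and dispase, and EpCam+ cells without CD45 or CD31 were sorted by the level of eGFP made from the Lrig1 gene, per the labels' protocols. The labels give no age, sex or animal for a library, so a p-value here measures the spread between libraries, which may be technical in part. RNA was counted per gene as reads, and levels are given as CPM, the counts of a library scaled to a common total with edgeR's TMM factors.

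Lrig1 is a membrane protein that restrains ErbB receptors and marks stem and progenitor cells at the base of intestinal crypts. In Apc-min mice the second Apc allele is lost in tumors, beta-catenin is no longer degraded, and genes of the canonical Wnt pathway are switched on, among them feedback inhibitors such as Notum. Regenerating and tumor epithelium can also express genes of the fetal gut, such as Clu, and genes of gastric glands, such as Muc6 and Ctse.

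The 7 libraries differed from each other before any grouping. Their totals ran from 9508505 counts in S08 to 17296536 in S14, and each tumor library had a lower total than each normal library (exact two-sided permutation test over the 35 arrangements, p = 0.0286, the smallest possible, and 0.171 after adjustment over 6 library measures). Mitochondrial ribosomal RNA took 42.8% of the counts of S12 and 15.8% to 20.998% of the other 6, and S12 had counts in 11995 genes against 12900 to 15990. Across genes, the log2(CPM + 1) values of S02, S06 and S14 correlated with each other at Pearson r of 0.971 to 0.984. The tumor library S04 correlated with those 3 at 0.964 to 0.972, S08 at 0.866 to 0.876 and S12 at 0.780 to 0.791, while the tumor libraries correlated with each other at 0.757 to 0.896. The library labelled normal S10 correlated with the tumor libraries S08 and S04 at 0.911 and 0.909. With the normal libraries S02, S06 and S14 it correlated at 0.909, 0.896 and 0.896, so it was about as near to S02 as to S08. S14 also held 38 genes above 1000 CPM that were more than 10-fold over every other library of the 14 with reads, against 0 to 3 such genes in the other 6 Lrig1-high libraries. In S04 these were Mycbp2 (10522 CPM), Ddx39b (8014 CPM) and Hipk1 (7943 CPM). The tumor group therefore held a library close to the normal ones and 2 that stood apart in different ways, and the normal group held 1 library, S10, that stood apart from its other 3.

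**Figure D1:**
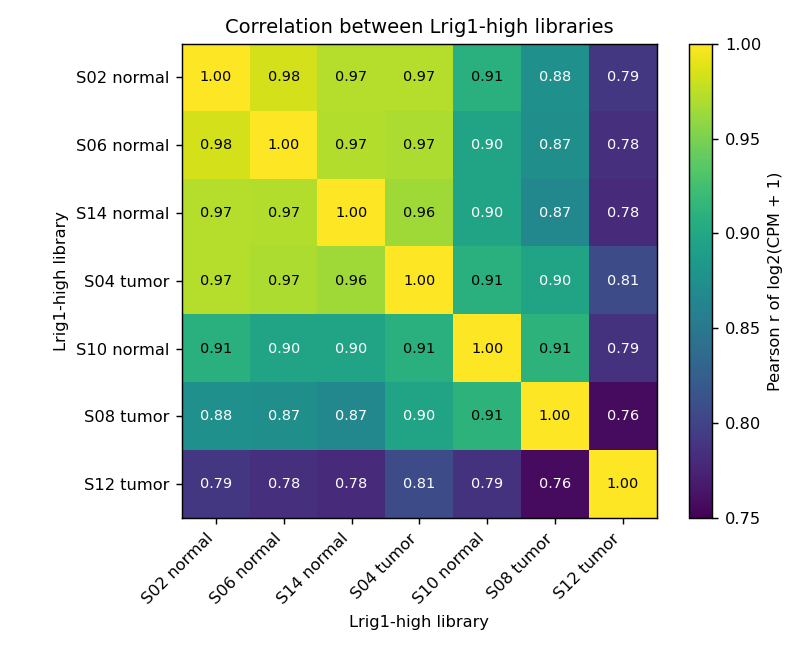
Pearson r of log2(CPM + 1) across genes for each pair of the 7 Lrig1-high libraries, with the colour scale from 0.75 to 1. The tumor library S04 sits with the normal libraries S02, S06 and S14. The normal library S10 is about as near to the tumor libraries S08 and S04 as to the normal library S02. S12 is the most distant from all others.

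Lrig1 itself checked the sort. It was at 148, 55.7 and 72.5 CPM in the tumor libraries S04, S08 and S12, and at 126, 138, 36.4 and 146 CPM in the normal libraries S02, S06, S10 and S14. The groups overlapped, with a log2 fold change of -0.28 ± 0.51 (SE), and an exact permutation test of log2 CPM, two-sided over 3 and 4 libraries, gave p = 0.80. The libraries labelled Lrig1-high S08 and S10 were at or near the Lrig1 levels of the libraries labelled Lrig1-low, which ran from 43.0 to 53.2 CPM in tumor S03 and S11 and from 45.3 to 54.0 CPM in normal S01, S05 and S13. Of the remaining Lrig1-low libraries, tumor S07 was at 142 CPM and normal S09 at 85.5 CPM. S08 and S10 also had the lowest Olfm4 of the 7, a crypt base stem cell gene, at 125 and 15.5 CPM, while the other 5 had 1996 to 4778 CPM. Values of those libraries are therefore values of libraries labelled Lrig1-high, and for many of the results values without them are given as well.

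The 4 marker genes named for this comparison were high in all 3 tumor libraries and low in 3 of 4 normal ones, with S10 as the exception each time. Clu (chr14:65968483-65981545, mm10), which encodes the secreted chaperone clusterin, was at 132, 403 and 355 CPM in S04, S08 and S12, and at 1.07, 0.993, 271 and 3.55 CPM in S02, S06, S10 and S14. Its level in S10 lay within the tumor range. Notum (chr11:120653788-120660837), a secreted enzyme that inactivates Wnt ligands, was at 18.8, 25.8 and 66.4 CPM in the tumor libraries and at 0.505, 0.397, 41.8 and 0.145 CPM in the normal ones. Muc6 (chr7:141634049-141655308), a mucin of gastric glands, was at 151, 194 and 3781 CPM against 0.631, 0.0662, 306 and 0.362 CPM. Ctse (chr1:131638314-131675507), an aspartic protease of gastric surface cells, was at 27.4, 55.2 and 70.2 CPM against 0.126, 0.199, 45.2 and 0.724 CPM. For each of the 4 genes S10 was above at least the lowest tumor library, so the groups overlapped.

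With all libraries in the fit, none of these 4 passed the edgeR quasi-likelihood test with Benjamini-Hochberg adjustment: the log2 fold changes were 2.10 ± 1.64 (SE) for Clu, 1.78 ± 1.53 for Notum, 4.16 ± 2.51 for Muc6 and 2.13 ± 1.59 for Ctse, with adjusted p of 0.616, 0.644, 0.528 and 0.600. Without S10 the log2 fold changes were 7.31 ± 1.47 for Clu, 6.67 ± 1.47 for Notum, 11.88 ± 3.05 for Muc6 and 7.19 ± 1.59 for Ctse, and the edgeR adjusted p was 0.183 to 0.189. S10 was the only normal library high for these genes, so larger fold changes without it were fixed in advance. They rest on levels of 3.55 CPM or less in S02, S06 and S14. Without the libraries S07, S08, S09 and S10 all 4 passed, among 12 genes called higher (0.0858%) and 0 lower (0.0%), with an edgeR adjusted p of 0.0223 for Ctse and 0.0403 to 0.0416 for the other 3. Those 4 libraries were chosen for leaving out because their Lrig1 and stem cell levels went against their labels, so that fit compares 2 tumor with 3 normal libraries and its p-values are too small.

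**Figure D2:**
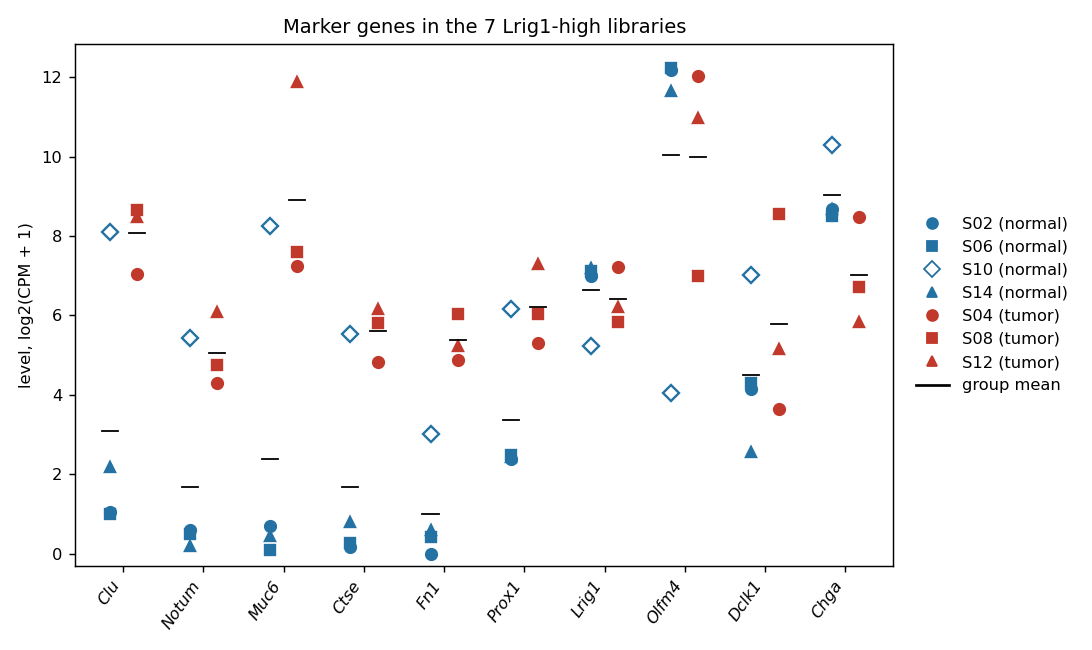
Levels on the log2(CPM + 1) scale of 10 genes in the 7 Lrig1-high libraries, with tumor libraries in red, normal libraries in blue, S10 as an open diamond and group means as black bars. S10 lies with the tumor libraries for Clu, Notum, Muc6, Ctse and Prox1, and apart from the other normal libraries for Lrig1, Olfm4, Dclk1 and Chga.

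Other genes were near silent in S02, S06 and S14 as well. In all, 14 genes, the 4 marker genes among them, were under 5 CPM in those 3 libraries and at 10 CPM or more in all 3 tumor libraries, a rule set after the values were seen. In S10, 12 of the 14 were at 10 CPM or more, 1 was between 5 and 10 CPM and 1 was under 5 CPM. S10 was at or above the lowest tumor library for 10 of the 14, while Fn1, Wfdc18, Slc38a4 and Sting1 did not overlap. Under that rule overlap could come only through S10. These counts are thus not to be read against the 3.37% of all genes that were higher without overlap. Fn1, which encodes the matrix protein fibronectin, was at 28.2, 64.1 and 36.5 CPM in the tumor libraries and at 0, 0.331, 7.03 and 0.507 CPM in the normal ones, with S10 the highest normal library and below all tumor ones. Prox1, a homeobox transcription factor switched on in Wnt-driven intestinal tumors, was at 38.5, 65.0 and 156 CPM against 4.23, 4.57, 70.2 and 4.42 CPM. Wfdc18, a secreted protease inhibitor family member, was at 38.5, 43.7 and 269 CPM against 0.0631, 0, 12.8 and 0 CPM. Spock2, Slc38a4 and Plat were at 10 CPM or more in S10 as well, at 37.8, 20.9 and 24.8 CPM. The fold change of all 14 was positive in the Lrig1-low fraction also, where the median log2 fold change of all genes tested was 0.02.

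Across all genes, the test called none. Of 13883 genes tested, 0 passed an adjusted p of 0.05 in either direction by edgeR (0.0% in each direction), with 983 higher in tumor (7.08%) and 576 lower (4.15%) at an unadjusted p under 0.05. The limma-voom fit with sample weights also called 0, and DESeq2 called 74 higher (0.533%) and 40 lower (0.288%). Of the DESeq2 calls, 59 of the 74 and all 40 were of genes whose tumor and normal libraries did not overlap, and 24 of the 40 were under 10 CPM in all 7 libraries. Leaving out S04, the tumor library most like the normal ones, edgeR called 263 genes higher (1.82%) and 544 lower (3.77%), and 104 and 150 of them lay on the same side in S04, with no overlap among the 7 libraries. In each of the other fits that leave out 1 library, edgeR called 0 in both directions. In all 7 libraries, 468 genes (3.37%) were higher in every tumor library than in every normal one, and 697 (5.02%) were lower. Of these, 386 and 351 had a mean of at least 10 CPM in the higher group.

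Genes with no overlap between the groups are described next, led by the 8 in each direction with the smallest p among those with at least 10 CPM in the higher group. These 16 did not pass the edgeR test with all libraries, at an adjusted p of 0.304 to 0.355. All 16 passed in DESeq2, with an adjusted p of 8.32e-06 to 0.0346, and in edgeR without S04. They kept their sign in all 25 alternative fits. The 16 were picked from these same libraries for no overlap and small p, and each fit reuses those counts. Their signs were thus close to fixed by that choice, and the passes are not independent support.

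Duoxa2 (chr2:122298900-122302885, plus strand), the maturation factor of the hydrogen peroxide generating oxidase Duox2, was at 22.2, 30.1 and 36.8 CPM in tumor S04, S08 and S12, and at 3.22, 5.36, 4.30 and 5.57 CPM in normal S02, S06, S10 and S14. S10 lay among the normal libraries here, and the log2 fold change was 2.68 ± 0.47. Its partner Duox2 was at 77.1, 167 and 41.6 CPM against 21.1, 29.9, 5.52 and 33.5 CPM, and did not overlap either. S100a11 (chr3:93520496-93526288, plus strand), a calcium-binding protein, was at 23.2, 47.2 and 174 CPM against 6.18, 6.82, 14.7 and 11.9 CPM, with a log2 fold change of 3.04 ± 0.56. The highest value, in S12, was more than 3 times the next one. Foxa1 (chr12:57540631-57546121, minus strand), a forkhead transcription factor of endoderm, was at 59.7, 78.3 and 79.4 CPM against 32.8, 32.1, 36.9 and 29.5 CPM (1.14 ± 0.22), with a narrow spread within both groups. Cd177, a surface glycoprotein also known from neutrophils, was at 95.1, 31.2 and 75.0 CPM against 11.8, 10.9, 14.7 and 17.9 CPM.

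Sting1, the innate sensor of cytosolic cyclic dinucleotides, was at 14.4, 24.1 and 31.6 CPM in the tumor libraries against 2.90, 1.79, 4.73 and 3.62 CPM in the normal ones (2.84 ± 0.57). Pde2a, a cyclic nucleotide phosphodiesterase, was at 55.02, 121 and 74.1 CPM against 24.2, 14.9, 29.6 and 11.4 CPM. Phlda1, a gene induced by MAPK signalling, was at 45.8, 55.5 and 74.2 CPM against 20.8, 19.8, 16.3 and 13.5 CPM (1.73 ± 0.36). For these 3 genes S04 was the lowest tumor library and still above every normal one. Hoxa2, a homeobox gene, was at 1.11, 3.19 and 26.9 CPM against 0.126, 0.265, 0.121 and 0.0724 CPM, so its mean of 10.4 ± 14.3 CPM (SD, n = 3) rests on S12.

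**Figure D3:**
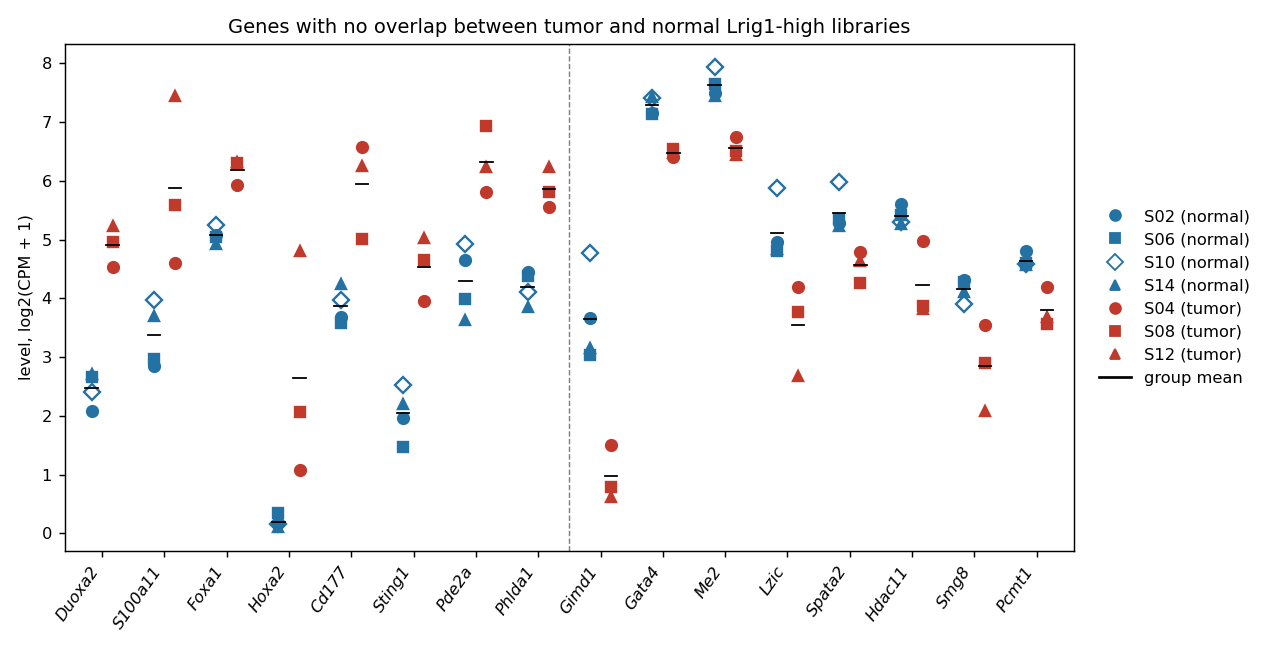
Levels on the log2(CPM + 1) scale of the 8 genes higher (left of the dashed line) and the 8 genes lower (right) in every tumor than in every normal Lrig1-high library, with group means as black bars. S04 is the tumor library nearest to the normal range for Duoxa2, S100a11, Foxa1, Hoxa2, Sting1, Pde2a and Phlda1.

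Duoxa2 and Duox2 lie head to head, with start sites 673 bases apart. Their upstream sequences are shown with those of S100a11 and Reg3g because the 4 genes were higher in every tumor library and because these windows were searched for motifs of pathways active in tumors. Each is the 250 bases before the annotated start in the strand of the gene, from RefSeq on GRCm38.p6, at chr2:122298650-122298899 (plus) for Duoxa2, chr2:122298228-122298477 (minus) for Duox2, chr3:93520246-93520495 (plus) for S100a11 and chr6:78468875-78469124 (minus) for Reg3g. Capitals mark a match to the AP-1 letters TGANTCA, or in Reg3g to the TCF/LEF letters CTTTGAT.
Duoxa2: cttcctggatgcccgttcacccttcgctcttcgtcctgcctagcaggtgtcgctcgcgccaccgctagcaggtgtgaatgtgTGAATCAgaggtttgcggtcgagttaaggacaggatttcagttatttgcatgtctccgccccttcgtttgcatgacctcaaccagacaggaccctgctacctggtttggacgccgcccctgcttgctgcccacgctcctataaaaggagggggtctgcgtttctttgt
Duox2: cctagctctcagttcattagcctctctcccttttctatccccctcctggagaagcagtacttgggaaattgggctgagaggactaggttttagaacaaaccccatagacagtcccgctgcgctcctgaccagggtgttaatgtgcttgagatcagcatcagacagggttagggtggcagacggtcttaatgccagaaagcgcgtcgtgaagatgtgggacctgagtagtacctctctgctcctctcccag
S100a11: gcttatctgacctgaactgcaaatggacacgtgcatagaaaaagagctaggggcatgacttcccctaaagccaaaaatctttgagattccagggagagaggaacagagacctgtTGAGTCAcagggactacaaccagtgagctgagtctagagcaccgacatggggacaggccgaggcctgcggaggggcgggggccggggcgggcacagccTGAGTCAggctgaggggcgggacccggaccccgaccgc
Reg3g: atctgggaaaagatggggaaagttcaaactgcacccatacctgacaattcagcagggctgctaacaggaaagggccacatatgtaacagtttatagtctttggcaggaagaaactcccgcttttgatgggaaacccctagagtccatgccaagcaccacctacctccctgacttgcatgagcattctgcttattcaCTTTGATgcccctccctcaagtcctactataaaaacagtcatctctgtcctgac
The window of Duoxa2 held 1 AP-1 match, that of S100a11 held 2, and that of Reg3g held 1 TCF/LEF match, while that of Duox2 held neither. These 4 windows are a choice among many, so their matches give no share. Over windows of 300 bases, 250 before to 50 after the start and read on both strands, TCF/LEF letters (CTTTGAA or CTTTGAT) stood in 8.08% of the 297 no-overlap genes higher in tumor with at least 10 CPM, against 7.43% of the 10696 tested genes with a window. AP-1 letters, chosen after the data were seen, stood in 6.06% against 6.35%, and TEAD letters (GGAATG), the motif of the partners of YAP, in 15.2% against 14.4%. The shorter letters CTTTG stood in 49.5% against 51.7%. Among the 290 no-overlap genes lower in tumor with at least 10 CPM, the shares were 9.31% for TCF/LEF, 7.24% for AP-1, 12.8% for TEAD and 51.4% for CTTTG. In all RefSeq genes with a window the shares were 9.88% for TCF/LEF, 8.97% for AP-1 and 16.6% for TEAD. The shares among the genes higher in tumor were thus near those of all genes tested, and a match is a stretch of letters, not a known site.

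Among the lower genes, Gimd1, a small GTPase of the GIMAP family, was at 1.82, 0.730 and 0.541 CPM in the tumor libraries against 11.7, 7.22, 26.2 and 7.89 CPM in the normal ones (log2 fold change -3.65 ± 0.63). Gata4 (chr14:63198915-63245260, minus strand), the transcription factor that sets the identity of the proximal small intestine, was at 84.4, 92.7 and 88.4 CPM against 142, 140, 169 and 172 CPM (-0.82 ± 0.17). The libraries of each group lay close together, S10 and S12 included. Me2, the mitochondrial NAD-dependent malic enzyme, was at 106, 90.4 and 85.7 CPM against 180, 200.4, 244 and 174 CPM (-1.09 ± 0.25). The histone deacetylase gene Hdac11 was at 30.5, 13.6 and 13.2 CPM against 47.7, 41.6, 38.4 and 37.5 CPM. Lzic, Spata2, Smg8 (a regulator of nonsense-mediated decay) and Pcmt1 (a protein repair methyltransferase) completed the 8, with means of 11.8, 22.9, 6.81 and 13.3 CPM in tumor against 35.5, 44.1, 16.9 and 24.0 CPM in normal. Their log2 fold changes were -1.59 ± 0.40, -0.95 ± 0.24, -1.31 ± 0.36 and -0.85 ± 0.24.

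Gene lists are described by how many of their tested members had no overlap, to be read against 3.37% higher and 5.02% lower among all genes, and by their median log2 fold change, which was -0.04 over all genes with 47.4% positive. No member of any list passed the edgeR adjusted p with all libraries. Genes of fetal and regenerating epithelium had a positive fold change in 21 of 21 tested members, with a median of 1.86. They did not overlap in 6, among them Cd55, Anxa8, Il1rn, Anxa5 and Marcksl1, and Clu was a member of the list as well. With DESeq2 size factors 5 did not overlap. Anxa8 and Il1rn were near the floor in the normal libraries, at 0.182 and 2.12 CPM in S10. Anxa5, an annexin, was at 10.6, 31.8 and 18.5 CPM in tumor S04, S08 and S12 against 4.92, 4.37, 9.34 and 6.52 CPM in the normal libraries. Marcksl1 was at 56.0, 57.4 and 66.0 CPM against 23.5, 14.7, 43.4 and 26.4 CPM. Its highest normal value and those of Cd55, Il1rn, Anxa8 and Anxa5 were all in S10. Of the members with the highest levels, Anxa2 (126, 267 and 199 against 91.0, 52.9, 271 and 106 CPM) and Krt7 (135, 262 and 52.2 against 103, 87.7, 155 and 94.8 CPM) overlapped. Without S10, 15 of the 21 did not overlap, against 7.71% of all genes higher in tumor, and the median was 4.96. With the 6 members that had no count in S02, S06 and S14 set to the bound that 3 counts over those libraries allow, it was 4.14.

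Genes of gastric-type epithelium were positive in 14 of 14 tested members, with a median of 2.68, and 3 did not overlap. Gkn3, a gastrokine, was at 28.6, 36.1 and 104 CPM in tumor against 10.1, 14.04, 21.5 and 5.07 CPM in normal. Tff2, a trefoil peptide of gastric mucous neck cells, was at 5.47, 6.02 and 9.73 CPM against 0, 0.397, 0.970 and 0.0724 CPM, and Bpifb1 at 3.41, 4.29 and 20.8 CPM against 0, 0, 2.36 and 0 CPM. S10 was again the highest normal library for all 3. Without S10, 9 of 14 did not overlap, against 7.71% of all genes higher in tumor. The fitted median without S10 was 6.997. With the 5 members at 0 in the other normal libraries set to the same bound, the median was 5.61.

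**Figure D4:**
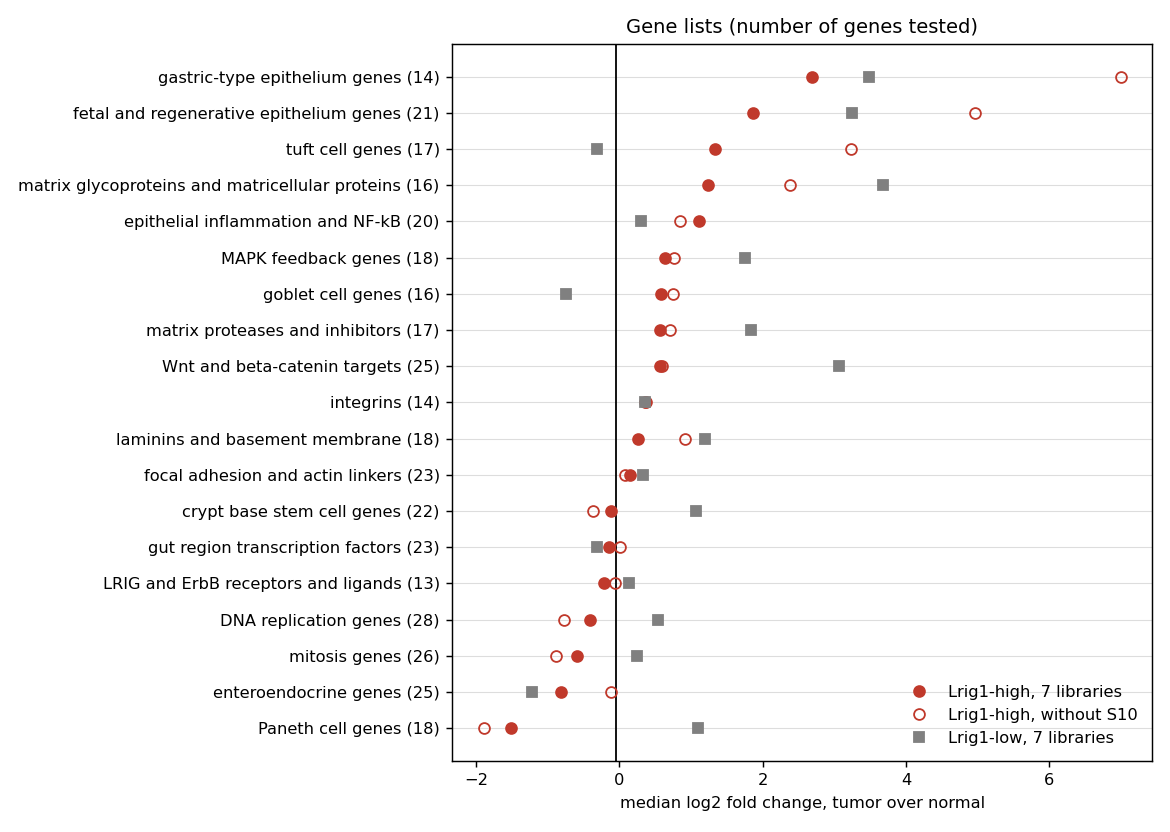
Median log2 fold change of tumor over normal for 19 gene lists, with the number of tested genes in brackets, for Lrig1-high cells with all 7 libraries (filled circles), without S10 (open circles) and for Lrig1-low cells (squares), and the median of all genes as a vertical line. Among the filled circles the gastric and fetal lists lie furthest to the right, and theirs are the largest shifts from filled to open circles. The open circles are fitted medians, 6.997 for the gastric and 4.96 for the fetal list. With members without a count in S02, S06 and S14 set to the bound described in the text, these were 5.61 and 4.14. Among the squares the matrix glycoprotein list lies furthest to the right.

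The extracellular matrix and its receptors came next, as the series is titled for them. Matrix glycoproteins had 13 of 16 tested members positive (median 1.23), with Fn1, Fbln1 and Thbs1 higher and Thbs4 lower without overlap. Thbs1, which encodes thrombospondin 1, was at 56.4, 203 and 162 CPM in tumor against 29.7, 11.8, 12.7 and 7.46 CPM in normal (log2 fold change 3.19 ± 0.82), and DESeq2 called it. S04 was less than 2-fold above S02 for this gene, while S08 and S12 were far above all normal libraries. Fbln1, a fibulin, was at 52.3, 42.0 and 60.4 CPM against 26.4, 39.99, 35.3 and 32.1 CPM. Thbs4 was at 2.61 CPM or less in all 7, and Mfge8 overlapped at 49.6, 24.7 and 71.3 CPM against 42.9, 45.4, 39.1 and 47.7 CPM. Without S10, 8 of the 16 were higher and 1 lower without overlap, against 7.71% and 10.5% of all genes. The median without S10 was 2.38, or 2.24 with 4 members at the bound.

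Matrix proteases and their inhibitors were positive in 14 of 17 tested members (median 0.57), and 5 did not overlap: Timp2, Mmp14, Adam15, Adam8 and Adam10. The membrane-bound metalloprotease gene Mmp14 was at 87.8, 79.8 and 122 CPM in tumor against 61.4, 54.7, 70.7 and 48.9 CPM in normal, and the sheddase gene Adam10 at 199.6, 186 and 227 CPM against 162, 152, 155 and 168 CPM. These 2 differences were small, and their log2 fold changes were 0.71 ± 0.35 and 0.36 ± 0.21. Adam8 was at 4.598, 7.94 and 36.5 CPM against 0.757, 1.99, 3.46 and 0.507 CPM. Mmp7, the matrilysin of Paneth cells, overlapped at 105, 63.9 and 193 CPM against 165, 92.4, 16.7 and 49.7 CPM.

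The integrins, which bind matrix proteins, were positive in 11 of 14 tested members (median 0.36). Itgav, a fibronectin and vitronectin receptor subunit, was at 42.6, 43.3 and 110 CPM in tumor against 26.4, 24.3, 38.0 and 25.9 CPM in normal, and the collagen receptor subunit Itga2 at 54.5, 64.8 and 62.3 CPM against 45.2, 48.1, 31.4 and 48.4 CPM. Neither gene overlapped. The most abundant members overlapped: Itga6 had means near each other, with a log2 fold change of -0.09 ± 0.28, and Itgb1 and Itgb4 were at 0.34 ± 0.25 and 0.11 ± 0.31. Focal adhesion and actin linker genes were positive in 16 of 23 (median 0.14), with Zyx, Cgnl1 and Flna higher without overlap. Zyx, the focal adhesion protein zyxin, was at 54.1, 59.1 and 83.0 CPM against 42.1, 38.9, 40.5 and 36.1 CPM, and the actin crosslinker Flna at 40.9, 73.7 and 46.3 CPM against 17.2, 24.8, 20.5 and 22.7 CPM. Actn4 and Tns3, among the most abundant of this list, had log2 fold changes of -0.08 ± 0.32 and -0.04 ± 0.27. Laminins and other basement membrane genes did not differ without overlap in any of 18 tested members (median 0.25), although Lama5 was at 25.9, 57.7 and 114 CPM against 24.4, 22.1, 37.8 and 8.32 CPM. Agrn and Hspg2 had log2 fold changes of 0.15 ± 0.29 and -0.59 ± 0.43. Without S10, 6 of the 18 were higher and 1 lower without overlap, against 7.71% and 10.5% of all genes, and the median was 0.92.

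Targets of Wnt and beta-catenin were positive in 18 of 25 tested members (median 0.57), and 1, Dkk2, did not overlap, at 1.43, 2.37 and 0.649 CPM in tumor against 0, 0, 0.424 and 0 CPM in normal. Axin2, a feedback inhibitor and general reporter of the pathway, was at 245, 123 and 226 CPM against 255, 331, 62.3 and 250.2 CPM, so 3 of the normal libraries were at or above every tumor one. Sox9 overlapped as well, with the highest level in a normal library, at 262, 154 and 132 CPM against 216, 277, 93.9 and 194 CPM. Nkd1, another feedback inhibitor, was at 48.9, 112 and 185 CPM against 7.51, 9.14, 97.7 and 4.13 CPM, and overlapped only through S10. Cd44, a hyaluronan receptor of crypt base cells, was at 231, 120 and 221 CPM against 88.7, 136, 53.2 and 84.3 CPM. Cldn2 was at 204, 137 and 313 CPM against 105, 115 and 51.7 CPM in S02, S06 and S10, and at 3064 CPM in S14. Without S10, 6 of the 25 were higher and 1 lower without overlap, against 7.71% and 10.5% of all genes. The median was 0.59 without S10, 0.91 without S08 and S10, and 0.08 without S12.

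Crypt base stem cell genes were positive in 8 of 22 tested members (median -0.12), and none was without overlap. Olfm4 was at 4208, 125 and 1996 CPM in tumor against 4645, 4778, 15.5 and 3227 CPM in normal, and Slc12a2 at 2260, 309 and 1896 CPM against 2187, 2190, 203 and 1833 CPM. Both were low in S08 and S10 and of like size in the other 5 libraries. Without S10, 5 of 22 were lower without overlap, against 10.5% of all genes, and the median was -0.37. Without S08 and S10 the median was -0.18. Clca3b was at 1789, 356 and 1148 CPM against 2002, 2438, 67.3 and 11651 CPM, with the top value in S14.

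MAPK feedback genes, which ERK signalling induces, were positive in 15 of 18 (median 0.64). Dusp6, the ERK phosphatase, was at 17.996, 33.03 and 19.4 CPM in tumor against 6.44, 5.03, 14.8 and 6.08 CPM in normal, and Etv4 at 8.48, 9.58 and 22.3 CPM against 5.55, 2.18, 4.18 and 1.45 CPM. With Phlda1, described above, they made up the 3 members without overlap. Egr1 and Spred1, also abundant, overlapped at log2 fold changes of 0.38 ± 0.66 and 0.69 ± 0.32, and Egr1 was at 359 CPM in S12 against 49.9 to 142 CPM in the other 6. Lrig1's own family and the ErbB receptors and ligands were positive in 4 of 13 (median -0.22), with no member without overlap. Erbb2 was at 131, 141 and 170 CPM against 153, 163, 190 and 148 CPM, and Erbb3 at 248, 274 and 169 CPM against 278, 300.2, 303 and 226 CPM.

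Epithelial inflammation genes were positive in 16 of 20 (median 1.11), and 5 did not overlap: Reg3g, Duox2, Sting1, Icam1 and Nfkbiz. Reg3g, an antibacterial lectin of the epithelium, was at 411, 674 and 554 CPM in tumor against 72.8, 63.1, 200.3 and 112 CPM in normal (log2 fold change 2.29 ± 0.56), and DESeq2 called it. Its near neighbour Reg3b was at 427, 784 and 620 CPM against 93.5, 43.8, 723 and 122 CPM, and overlapped only through S10. The Reg genes are similar in sequence, so reads may be split between them. The adhesion receptor gene Icam1 was at 4.52, 4.93 and 9.19 CPM against 1.70, 0.596, 1.64 and 0.579 CPM. Nfkbiz, an atypical inhibitor of NF-kB, differed least, at 71.6, 92.2 and 73.0 CPM against 59.1, 61.6, 66.3 and 53.7 CPM. Without S10, 8 of the 20 were higher without overlap, against 7.71% of all genes. The median was 0.84 without S10 and 0.41 without S08 and S10. Ccl25, a chemokine of the small intestine, was at 153, 216 and 247 CPM against 306, 257, 574 and 223 CPM.

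Genes of differentiated cells showed how far the libraries differed in make-up. In bulk RNA, fewer cells of a type and less RNA per cell cannot be told apart. Enteroendocrine genes were positive in 5 of 25 tested members (median -0.82), and 6 were lower without overlap: Gip, Chga, Pcsk1, Pax6, Chgb and Pax4. Chga, chromogranin A, was at 353, 103 and 56.4 CPM in tumor against 406, 364, 1248 and 410 CPM in normal, Chgb at 469, 325 and 54.2 CPM against 730, 741, 1662 and 662 CPM, and the incretin gene Gip at 33.9, 152 and 24.3 CPM against 215, 164, 701 and 153 CPM. S10 was far above the other normal libraries for all 3, and S04 and S08 were close to the lowest normal library for 1 or more of them. Without S10 the count of 6 in 25 was the same, against 10.5% of all genes, and the median without it was -0.11, or -1.31 without S08 and S10.

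Tuft cell genes were positive in 16 of 17 (median 1.33) with none free of overlap. Dclk1 was at 11.5, 375 and 34.3 CPM against 16.7, 18.8, 129 and 4.92 CPM, Trpm5 at 10.3, 324 and 0.324 CPM against 16.7, 13.7, 101 and 3.91 CPM, and Plcg2 at 22.9, 191 and 50.3 CPM against 23.5, 28.3, 70.6 and 22.1 CPM. The tumor value rests on S08: the median was 3.23 without S10 and -0.34 without S08 and S10. Goblet cell genes were positive in 11 of 16 (median 0.58), and Agr2 and Spdef were higher without overlap. Agr2, a disulfide isomerase needed for mucin folding, was at 498, 766 and 416 CPM against 290, 201, 139 and 253 CPM, and the goblet transcription factor Spdef at 37.3, 30.8 and 49.5 CPM against 24.9, 14.96, 22.7 and 13.03 CPM. The products Muc2 (log2 fold change 0.96 ± 0.65), Fcgbp (-0.88 ± 0.71) and Zg16 (-0.62 ± 1.05) overlapped.

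Paneth cell genes were positive in 7 of 18 (median -1.51), with none free of overlap. Without S10, 3 of 18 were lower without overlap, against 10.5% of all genes, and the median was -1.89. Lyz1 was at 817, 81.5 and 1053 CPM in tumor against 3998, 1885, 353 and 771 CPM in normal, and Itln1 at 489, 87.4 and 300 CPM against 2817, 1683, 30.9 and 417 CPM. S02 and S06 were the high libraries and S08 and S10 the low ones for both. Defa24 was at 515, 32.3 and 401 CPM against 4621, 1952, 21.9 and 507 CPM, but the defensin genes are near copies of each other and their counts are uncertain. DNA replication genes were positive in 3 of 28 (median -0.42) and mitosis genes in 1 of 26 (median -0.59), again without a member free of overlap. Without S10, 8 of 28 and 7 of 26 were lower without overlap, against 10.5% of all genes, and the medians were -0.78 and -0.88. Mki67 was at 1286, 606 and 520 CPM against 1200, 1534, 295 and 1766 CPM, Top2a at 617, 134 and 263 CPM against 576, 760, 69.2 and 774 CPM, and Mcm6 at 251, 66.6 and 101 CPM against 234, 239, 33.3 and 233 CPM. S04 was at the level of S02, S06 and S14 for all 3, and S10 was the lowest library. Lig1 and Mcm3 followed, with log2 fold changes of -0.72 ± 0.66 and -0.53 ± 0.66, while Nusap1 was at 10738 CPM in S14 and at 9.88 to 101 CPM in the other 6.

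Transcription factors of gut regions were positive in 10 of 23 (median -0.15), with Foxa1 higher and Gata4, Thra and Thrb lower without overlap. Thra, the thyroid hormone receptor of crypt cells, was at 91.6, 97.4 and 66.5 CPM in tumor against 136, 140, 147 and 109 CPM in normal, and Thrb at 39.1, 30.5 and 17.2 CPM against 44.9, 48.6, 40.5 and 42.6 CPM. Hnf4a, Klf5 and Hnf4g, the most abundant of the list, overlapped with log2 fold changes of -0.46 ± 0.33, 0.25 ± 0.19 and -0.22 ± 0.53. Without S10, 5 of the 23 were higher and 6 lower without overlap, against 7.71% and 10.5% of all genes, and the median was 0.01. The labelled tissue is colon, but the median of 15 colon markers was 0 to 0.912 CPM in the 7 libraries, against 115 to 382 CPM for 16 markers of the small intestine. Of the colon markers 6 had no count in any of the 7. The tissue is therefore named colon by its label alone.

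Cells excluded by the sort were scarce in most libraries. Epcam was at 605 to 1396 CPM. The CD45 gene Ptprc reached 46.1 CPM in S08 and 6.49 CPM in S10 but only 0.865 CPM in the other 5, and the highest level of the CD31 gene Pecam1 was 0.788 CPM. Leukocyte markers summed to 1.41 to 57.2 CPM in tumor and 9.56 to 13.3 CPM in normal libraries, with 4 of 24 tested and 12 to 22 of the 24 at 0 in a library. Apart from Ptprc, the sum of S08 came almost entirely from Itgam at 11.04 CPM, a gene at 5.09 to 8.94 CPM in the other libraries but S12, where it was 0. S08 had no count for the T cell and macrophage genes Cd3e, Csf1r and Tyrobp. Fibroblast markers summed to 0.730 to 2.46 CPM in tumor and 2.18 to 11.2 CPM in normal, with 3 of 15 tested and Dcn, Lum and Postn at 0 in all 7. Endothelial markers summed to 10.9 to 59.5 CPM in tumor and 7.57 to 47.1 CPM in normal. Of these, Cdh5 was at 2.62, 24.4 and 26.6 CPM in S04, S08 and S12, at 30.2 CPM in S10 and at 0 in the other 3, and Flt1 was at 18.6 CPM in S08. Smooth muscle markers summed to 39.1 CPM in S12 and to 0.872 CPM or less elsewhere. The part of these cells in the results above was not tested.

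Whether tumor over normal differs between Lrig1-high and Lrig1-low cells was tested as an interaction, with 3 tumor and 4 normal Lrig1-low libraries (S15, with 357 counts, was left out). EdgeR called 0 of 13883 genes (0.0%), with 999 at an unadjusted p under 0.05 (7.2%), and DESeq2 called 1 larger and 4 smaller in Lrig1-high. Within Lrig1-low cells edgeR called 43 genes higher in tumor (0.31%) and 3 lower (0.0216%). Thbs1, Fn1, Foxa1, Phlda1, Sting1 and Cd44 were among the 43, with log2 fold changes of 5.66 ± 0.91, 7.78 ± 1.41, 1.82 ± 0.22, 2.95 ± 0.37, 4.25 ± 0.61 and 3.07 ± 0.44, and Gata4 and Me2 were among the 3, at -0.94 ± 0.17 and -1.34 ± 0.25. In Lrig1-high cells the fold changes of these 8 had the same sign. All but Cd44 had no overlap in Lrig1-high cells in that direction, so their shared sign was fixed by the choice of genes. It is thus no measure of how far the fractions agree, and the other calls are not described here. The interaction did not pass for any of the 8 (edgeR interaction adjusted p of 0.685 to 0.887). The fractions compared here are those of the labels, which the Lrig1 and stem cell levels of S07, S08, S09 and S10 went against. The mean log2(CPM + 1) of the crypt base list was 6.86 in S07 and 5.96 in S09, labelled Lrig1-low. It was 5.37 in S08 and 4.64 in S10, labelled Lrig1-high. Their part in the differences between fractions was not tested. The Wnt target list had a median of 3.07 in Lrig1-low cells against 0.57 in Lrig1-high cells. Axin2 had a log2 fold change of 2.12 ± 0.54 in Lrig1-low and -0.18 ± 0.54 in Lrig1-high cells, an interaction of -2.30 ± 0.76 with an edgeR adjusted p of 0.685.

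The smallest interaction p-values were for genes with a larger difference in Lrig1-high cells, Tmem143 (1.74 ± 0.40), Gdpd1 (1.59 ± 0.40) and Cog5 (1.09 ± 0.31), and with a smaller one, Ier5l (-5.33 ± 1.05), Neto2 (-2.76 ± 0.66) and Plxna1 (-1.14 ± 0.27), all at an edgeR adjusted p of 0.685. Gdpd1, a phosphodiesterase of lysophospholipids, was at 72.4, 165 and 134 CPM in tumor Lrig1-high against 54.6, 46.1, 57.1 and 59.2 CPM in normal, without overlap. The immediate early related gene Ier5l was at 3.73, 2.28 and 0.541 CPM against 3.28, 3.57, 3.09 and 3.84 CPM in Lrig1-high cells. In Lrig1-low cells it was at 6.97, 8.80 and 27.0 CPM in tumor and at 0.895 CPM or less in normal. Of the 468 genes higher without overlap in Lrig1-high cells, 361 had a positive fold change in Lrig1-low cells, and of the 697 lower, 491 had a negative one. The median log2 fold change of all genes tested in Lrig1-low cells was 0.02. The 2 fractions share no library, but the labels do not say whether they share animals or tumors.

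**Figure D5:**
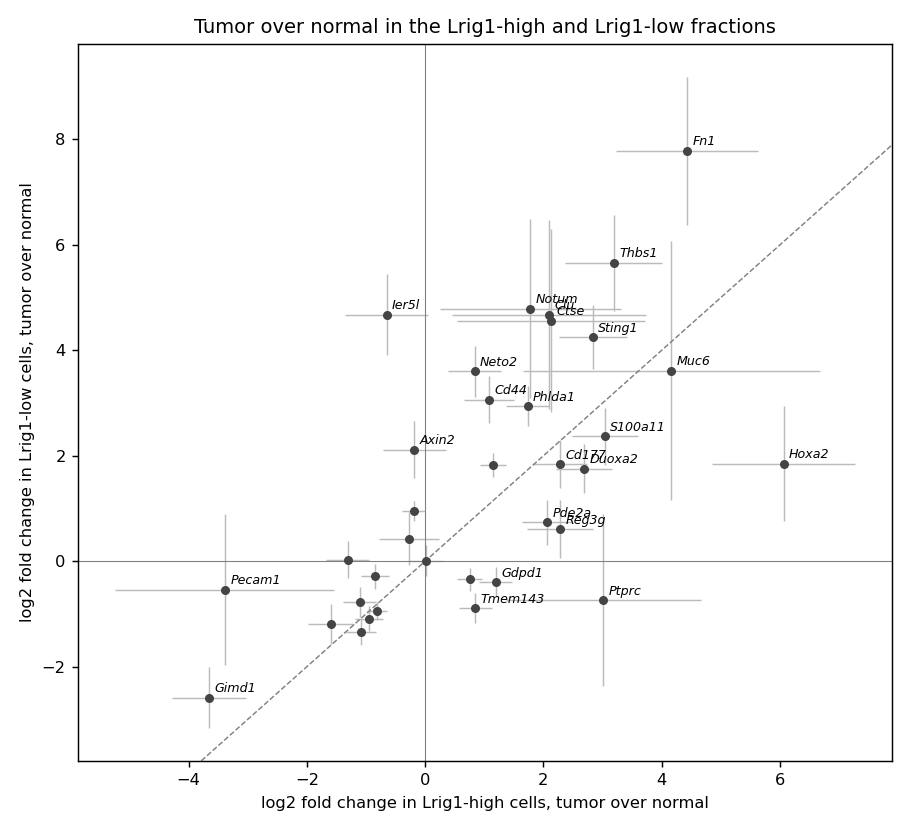
Log2 fold change of tumor over normal in Lrig1-high cells (horizontal) and Lrig1-low cells (vertical) for a selection of the named genes, with standard errors as bars and the line of equal change dashed. Fn1, Thbs1, Notum, Clu and Ctse lie above the line, Muc6, Hoxa2, Pde2a and Reg3g lie below it, and most bars of the marker genes reach the line or come near it. The place of Clu, Notum and Ctse depends on S10. Without it their fold changes in Lrig1-high cells were larger than the Lrig1-low values drawn. Those Lrig1-low values keep normal S09, so the 2 sides are not alike. Gastric-type genes summed to 372 CPM in S09 against 14.8, 26.0 and 35.8 CPM in S01, S05 and S13.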

How the data were processed

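The authors deposited unnormalized counts of reads for 15 libraries and 27179 genes. The file headers name featureCounts 1.5.3, run on exons with the reverse strand option. Trimming with Trimmomatic, alignment with HISAT2 and the mm10 build are in the submitters' processing notes, and the labels' protocols name a stranded total RNA kit for small inputs. Both ends of a read pair count separately, since the command in the header names no pair option. Symbols came from RefSeq for 25275 gene identifiers and from GENCODE M21 for 18, and 1886 had none. S15 was left out for its depth, and the other 14 libraries were fitted together in edgeR 4.0.16 (R 4.3.3). That fit used filterByExpr, TMM factors and 1 coefficient for each group, and its quasi-likelihood F test was adjusted by Benjamini-Hochberg over 13883 genes. Standard errors were the fold change divided by the square root of F. The alternatives used DESeq2 1.42.0, limma 3.58.1 and other scalings, filters and library sets. The fit was also run on simulated data. Recovery of known changes was required there only at a low spread set by hand. The run therefore does not show what the fit can find at the spread of these libraries.

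The members and the 41 gene lists were chosen with earlier results of these data known. Named genes were the sort and marker genes, 8 genes per direction without overlap and at 10 CPM or more in the higher group, by smallest p where fewer than 6 passed, up to 3 members per described list by mean level, and 3 per direction for the interaction. Some genes that the rule picks are not reported here. Other genes were named after their values were seen: list members without overlap, genes near silent in S02, S06 and S14, Nkd1, Cd44, Mycbp2, Ddx39b, Hipk1 and the genes of the closing section. No overlap means that all 3 tumor libraries lie above, or below, all 4 normal ones.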

Additional observations from a re-analysis of the deposited data

Results flagged for a closer look

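In a group of 4 libraries a value was singled out when its gap to the nearest other library, as a share of the group's range, passed the 95% critical value of Dixon's test, which chance gives in about 1 group in 20. Among the 127 named genes this happened in the normal Lrig1-high libraries for 37 values, and 34 of them were in S10, 31 high and 3 low. Many of these genes were named because they were near silent in S02, S06 and S14 or because of their level in S10, and the 34 values lie in the same library. The count is therefore a description and is not to be read against that rate.

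S10 stood high for the marker genes Clu (271 CPM), Notum (41.8 CPM), Muc6 (306 CPM) and Ctse (45.2 CPM), for Prox1 (70.2 CPM), Slc38a4 (20.9 CPM), Wfdc18 (12.8 CPM), Spock2 (37.8 CPM) and Plat (24.8 CPM), and for the Wnt pathway genes Nkd1 (97.7 CPM) and Dkk2 (0.424 CPM). It stood high for fetal and gastric list members, Anxa8 (0.182 CPM), Il1rn (2.12 CPM) and Bpifb1 (2.36 CPM), and for matrix and adhesion genes, Fn1 (7.03 CPM), Itgb4 (188 CPM), Itgav (38.0 CPM) and Timp2 (4.06 CPM). The same library was high for the enteroendocrine genes Chgb (1662 CPM), Chga (1248 CPM) and Gip (701 CPM), the tuft cell genes Dclk1 (129 CPM), Trpm5 (101 CPM) and Plcg2 (70.6 CPM), the goblet gene Zg16 (1651 CPM), Reg3b (723 CPM), Hnf4g (459 CPM), Dusp6 (14.8 CPM), Lzic (57.6 CPM), Spata2 (62.0 CPM) and the leukocyte gene Ptprc (6.49 CPM). It was low for Spred1 (24.2 CPM) and for the DNA replication genes Mcm6 (33.3 CPM) and Lig1 (22.4 CPM).

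S14 stood high for Cldn2 (3064 CPM) and Nusap1 (10738 CPM), and S02 for Pcmt1 (26.9 CPM).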

How the results depend on the processing

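Of 3169 refits of the 127 named genes under 25 alternatives, 3049 kept their sign and their side of the edgeR threshold, 61 passed it and 59, in 19 genes, changed sign. With none passing in either direction at first, DESeq2 called 74 genes higher and 40 lower, the fit without S07, S08, S09 and S10 called 12 higher, and the fits that leave out 1 library called 0 to 263 higher and 0 to 544 lower, the upper values without S04. For the interaction, DESeq2 called 1 larger and 4 smaller, and the fits without 1 library 0 to 7 larger and 0 to 150 smaller, again without S04. Genes without overlap, 468 higher and 697 lower, numbered 1765 and 2366 without S08 and S10, and 560 to 1464 higher and 838 to 2478 lower without 1 library, since fewer libraries overlap less. The causes of the other changes were not tested.

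Signs changed mostly in genes with fold changes near 0. The log2 fold change of Epcam, 0.013 at first, was -0.024 with no filter, -0.00074 with only the 7 Lrig1-high libraries and -0.013 without mitochondrial genes. Without S08 and S10 the values were -0.26 for Epcam, 0.0041 for Slc12a2, -0.019 for Krt7, -0.14 for Itgb4, 0.016 for Tns3, -1.08 for Trpm5 and 0.48 for Hnf4g. Without S07 and S09 as well they were -0.23 for Epcam, 0.030 for Slc12a2, -0.12 for Itgb4, 0.041 for Tns3, -1.04 for Trpm5 and 0.51 for Hnf4g. With limma-voom they were -0.18 for Mfge8, 0.22 for Actn4, -0.0096 for Mmp7, -0.96 for Egr1 and 0.18 for Zg16.

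Over the fits without 1 library, the values ran from -0.21 to 0.27 for Epcam, -1.54 to 5.16 for Ptprc, -2.33 to 1.24 for Cldn2, -0.49 to 0.066 for Axin2, -0.45 to 0.12 for Sox9, -0.54 to 0.37 for Slc12a2, -0.23 to 0.82 for Krt7, -0.26 to 0.46 for Mfge8, -0.31 to 0.026 for Itga6 and -0.32 to 0.32 for Itgb4. They ran from -0.45 to 0.21 for Actn4, -0.21 to 0.15 for Tns3, -1.21 to 0.80 for Egr1, -1.83 to 0.55 for Zg16, -0.89 to 3.38 for Dclk1, -2.64 to 3.29 for Trpm5, -0.76 to 0.38 for Hnf4g and -5.78 to 0.028 for Nusap1. The positive value of Nusap1 and that of Cldn2 came without S14, and the negative values of Ptprc, Dclk1 and Trpm5 without S08.

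No paired analysis was possible because the labels give the groups no shared replicate numbers. With a block for each run of consecutive library numbers in its place, 1 gene was called higher, and the values were -0.060 for Epcam, 0.64 for Cldn2, -0.052 for Mfge8 and -0.37 for Egr1. Deviations of tumor and normal libraries of the same run correlated at 0.28, -0.16 and 0.04. With so few libraries these values cannot show whether a run pairs them.

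Depth limits the genes below 1 CPM, such as Hoxa2 in the normal libraries, whose levels rest on few reads.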

Other observations

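Several genes outside the lists described above were higher in every tumor than in every normal Lrig1-high library and were called by DESeq2, though not by edgeR, and they are named after their values were seen. Slc40a1, the iron exporter ferroportin, was at 24.9, 61.3 and 57.4 CPM in tumor S04, S08 and S12 and at 6.50, 7.08, 5.33 and 12.7 CPM in normal S02, S06, S10 and S14 (DESeq2 adjusted p = 0.0131). The tetraspanin genes Cd9 and Tspan1 were at 46.6, 77.9 and 182 CPM against 28.2, 24.7, 29.7 and 29.3 CPM (DESeq2 adjusted p = 0.00673) and at 93.9, 96.8 and 127 CPM against 35.3, 28.2, 29.3 and 45.8 CPM (DESeq2 adjusted p = 0.0133). Ptger4, a receptor of prostaglandin E2, was at 37.5, 31.7 and 72.8 CPM against 22.3, 24.1, 17.1 and 21.5 CPM (DESeq2 adjusted p = 0.0259). It was the 1 of 12 tested prostaglandin pathway genes without overlap (8.33%), against 3.37% of all genes. Reg1, a secreted lectin of the Reg family, was at 40.5, 107 and 120 CPM against 13.7, 7.15, 29.4 and 17.3 CPM (DESeq2 adjusted p = 0.0131). S10 lay within the range of the other normal libraries or below it for Slc40a1, Tspan1 and Ptger4.

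Tgfbr2, the type II receptor of TGF-beta, was at 49.5, 39.7 and 44.2 CPM in tumor against 20.5, 28.7, 30.1 and 25.8 CPM in normal, and neither edgeR nor DESeq2 called it with all libraries. It was the 1 of 22 tested TGF-beta and BMP pathway genes without overlap (4.55%), a share near the 3.37% of all genes. Nuclear genes of oxidative phosphorylation were positive in 12 of 38 (median log2 fold change -0.20). Of the 38, 4 were lower without overlap (10.5%, against 5.02% of all genes), among them Sdha, Sdhc and Cox4i1. Sdha and Sdhc, subunits of succinate dehydrogenase, were at 489, 335 and 183 CPM against 527, 505, 498 and 540.2 CPM, and at 97.7, 63.2 and 75.8 CPM against 112, 102, 111 and 109 CPM. Cox4i1 had a log2 fold change of -0.63 ± 0.24. Genes of lipid absorption were positive in 2 of 20 (median -0.64), of the enterocyte brush border in 6 of 22 (median -0.43) and of the Notch pathway in 9 of 16 (median 0.04). Interferon and antigen presentation genes were positive in 17 of 28 (median 0.18) and YAP and TAZ targets in 10 of 16 (median 0.22). Without S10 the medians of the lipid absorption and brush border lists changed sign, to 0.30 and 0.32, and those of the Notch, interferon and YAP lists were -0.01, 0.10 and 0.61. Without S08 and S10 the interferon median was -0.21.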
